A study of Homo sapiens with 18 samples.

Results

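The direct comparison described here set 3 libraries of untreated RPE-1 cells given an siRNA against MLXIP (siMondoA) against 3 libraries of untreated RPE-1 cells given an siRNA against MLX (siMlx). These 6 libraries, taken by their labels, are part of a series of 18, and the 13676 genes that passed a filter on low counts, of 33121 listed, were compared between them. RPE-1 is a human retinal pigment epithelial line immortalized with telomerase (hTERT), so all groups are cultures of 1 line. Each siRNA was delivered over 2 days with the RNAiMax reagent, and the cells of these 6 libraries received no drug. The other groups used beside them were untreated cells given a control siRNA (siControl) and the siMlx and siMondoA groups given the DNA-damaging drug doxorubicin (DXR) at 150 ng/ml for 3 days, each with 3 libraries. The labels give neither the siRNA sequences, nor how many siRNAs were used per gene, nor the harvest day of untreated cells, nor whether replicates were separate cultures, so each p-value rests on the spread among the libraries alone, which may be technical.

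MLXIP encodes MondoA, a transcription factor of the basic helix-loop-helix leucine zipper family that enters the nucleus when glucose-6-phosphate accumulates. MLX encodes the obligate partner with which MondoA binds carbohydrate response elements, and it also pairs with ChREBP (gene MLXIPL) and with some MXD and MNT proteins, which link it to the MYC and MAX network. TXNIP and ARRDC4, which encode arrestin-like proteins that restrain glucose uptake, are the best known MondoA-MLX targets. The comparison therefore asks how depletion of either partner of 1 heterodimer differs in cells that keep the other partner.

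Levels are given as CPM, a gene's count as a share of its library's scaled total, and differences as log2 fold changes of siMondoA over siMlx, so that a positive value means a higher level with siMondoA. A gene was called higher or lower at an adjusted p under 0.05 in edgeR's quasi-likelihood test, adjusted over all tested genes by Benjamini and Hochberg's method. Total counts were 17061466, 19097476 and 18249928 in the siMlx libraries and 17337078, 22854434 and 15503423 in the siMondoA libraries. The first principal component of the 6 libraries held 76.9% of their variance and placed the siMlx libraries between -43.4 and -40.6 and the siMondoA libraries between 36.7 and 46.8. The third siMondoA library lay nearest to the siMlx libraries on it. Of 15 marker genes of retinal pigment epithelium, MITF and OTX2 (transcription factors) and KRT8 and KRT18 (simple-epithelium keratins) were measured at over 10 CPM, whereas RPE65, RLBP1, TYR, TTR, LRAT and DCT had at most 4 counts in any of the 6 libraries.

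MLXIP (chr12:122078722-122147347, GRCh38) was measured at 84.8, 76.7 and 69.8 CPM with siMlx and 3.34, 4.57 and 3.63 CPM with siMondoA. Its level with siMondoA was lower in every library and did not approach that of siMlx (log2 -4.30, SE 0.12, adjusted p = 3.16e-16). MLX (chr17:42567068-42573239) was measured at 6.79, 7.12 and 7.095 CPM with siMlx and 52.1, 48.3 and 47.2 CPM with siMondoA, and was higher with siMondoA (log2 2.81, SE 0.07, adjusted p = 2.01e-16). The siControl libraries, at 25.8, 27.4 and 25.7 CPM, lay between the other groups, so part of the MLX difference was a level above control with siMondoA. The contrasts of MLX against siControl, which share those libraries with each other, were log2 0.91 for siMondoA and -1.91 for siMlx. In RPKM, which scales by gene length and allows levels of different genes to be set side by side, MLX stood at 10.5 with siControl, 2.85 with siMlx and 20.1 with siMondoA, and MLXIP at 12.2 with siControl, 13.9 with siMlx and 0.698 with siMondoA. MLXIPL, which encodes the paralogue ChREBP, had 1 count over the siMlx libraries and 0 over the siMondoA libraries.

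Other members of the network divided. MYC was measured at 84.2, 82.6 and 80.8 CPM with siMlx and 38.9, 38.2 and 40.7 CPM with siMondoA and was lower with siMondoA (log2 -1.07, SE 0.07, adjusted p = 1.93e-10), with no overlap. MAX, the common partner of MYC and the MXD proteins, was measured at 59.6, 56.5 and 58.3 CPM with siMlx and 35.2, 36.8 and 37.9 CPM with siMondoA, again lower with siMondoA (log2 -0.67, SE 0.07, adjusted p = 5.22e-08). MXI1, an antagonist of MYC that also binds MAX, was higher (log2 1.00, adjusted p = 4.43e-06), and MXD3, another such antagonist, was lower (log2 -1.55, adjusted p = 8.5e-05). Of the 11 tested genes of the MAX-MLX network, 2 were called higher and 4 lower, against 28.5% of all tested genes called higher and 30.4% called lower. These counts include the siRNA targets themselves, MLX among the higher and MLXIP among the lower genes.

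The classical MondoA targets did not separate the groups well. TXNIP was measured at 1.18, 2.22 and 3.13 CPM with siMlx and 1.39, 1.26 and 0.907 CPM with siMondoA, and the 3 values of 1 group overlapped the other. The difference did not pass the test (log2 -0.87, SE 0.43, adjusted p = 0.0915). It did pass in DESeq2 (adjusted p = 0.0392), in a fit of the 6 libraries alone (0.0449), with no filter on low counts (0.000189), with the replicate number as a block (0.0478) and without siMlx replicate 1 (log2 -1.15, adjusted p = 0.03). Both groups lay below the siControl libraries, at 10.9, 10.9 and 17.6 CPM. ARRDC4 had 4 counts over the siMlx libraries and 1 over the siMondoA libraries, a ratio of 0.243 with an exact 95% counting interval of 0.00494 to 2.46, so no difference was detectable at this depth. ARRDC3, an arrestin-like paralogue, was measured at 27.7, 28.9 and 36.7 CPM with siMlx and 126, 131 and 119.7 CPM with siMondoA, and was higher with siMondoA in every library (log2 2.02, SE 0.12, adjusted p = 1.56e-11). Its siControl libraries stood at 101, 114 and 104 CPM, near the siMondoA level, with log2 0.24 for siMondoA and -1.77 for siMlx against those shared controls.

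Among the 13 tested genes listed as targets of MondoA or ChREBP, 2 were called higher and 4 lower, with a median of log2 -0.18 against -0.01 over all tested genes. ACLY, which makes cytosolic acetyl-CoA, was higher (log2 0.60, adjusted p = 5.82e-07). KLF11, a zinc-finger repressor, HK2, a hexokinase, PFKFB3, which makes fructose-2,6-bisphosphate, and FASN, the fatty acid synthase, were lower, at log2 -1.35, -0.76, -0.50 and -0.38 (adjusted p = 1.24e-06, 1.64e-06, 2.44e-05 and 0.02). The FASN call ended without siMlx replicate 1 or 2 or siMondoA replicate 3.

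The E-box CACGTG, the core that MLX heterodimers and MYC-MAX share, was searched on both strands of RefSeq promoter windows (250 bases before to 50 after a gene's start, GRCh38.p14). It was found for 4 of the 10 listed targets with a window (40%) and 12.5% of the 9830 tested genes with one, and in 7.26% of all 35116 windows. A strict spelling of the carbohydrate response element, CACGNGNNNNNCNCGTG, which can hold an E-box, was in none of the 10 and 0.0228% of all windows. A pattern this rare could hardly be met in 10 windows, and looser spellings were not searched. Its absence therefore says nothing about these targets. Windows of 2 listed targets and of MLX itself are shown because they held a match, with the E-box in capitals. The windows of TXNIP, ARRDC3 and MLXIP, also discussed above, held no CACGTG.
KLF11, chr2:10043622-10043677, plus strand: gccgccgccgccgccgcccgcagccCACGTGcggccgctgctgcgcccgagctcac
ARRDC4, chr15:97960468-97960523, plus strand: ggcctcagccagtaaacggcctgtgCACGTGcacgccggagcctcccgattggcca
MLX, chr17:42567025-42567080, plus strand: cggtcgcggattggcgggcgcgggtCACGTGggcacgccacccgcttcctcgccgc

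**Figure D1:**
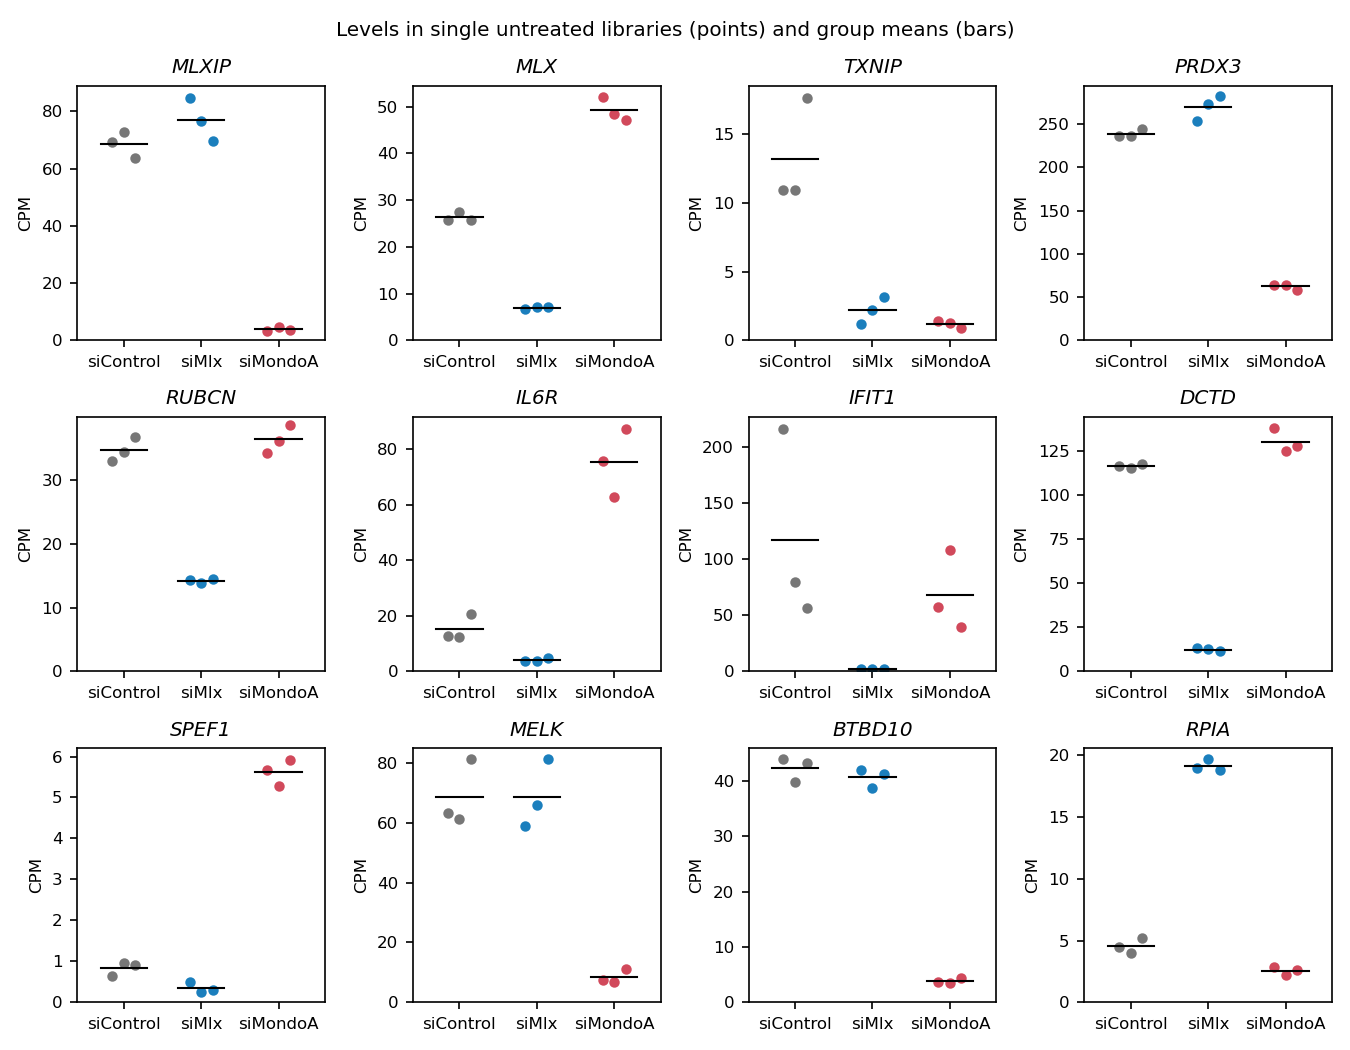
CPM (vertical axes, from 0) of 12 genes in the 9 untreated libraries, by siRNA; each point is a library and each bar a group mean of 3. TXNIP is low with either siRNA, DCTD and RUBCN are low with siMlx alone, BTBD10, PRDX3 and MELK are low with siMondoA alone, and IL6R and RPIA lie on opposite sides of siControl.

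Across all tested genes, 8060 (58.9%) were called, 3899 (28.5%) higher and 4161 (30.4%) lower with siMondoA. At least 2-fold differences were called for 1015 genes higher (7.42%) and 957 lower (7%). The libraries of the groups did not overlap for 4218 genes that were higher (30.8%) and 4468 that were lower (32.7%). For scale, siMondoA against siControl called 6375 genes (46.6%) and siMlx against siControl 6553 (47.9%), and these comparisons share the siControl libraries with each other and the siRNA libraries with the direct one. The shares of all tested genes called higher (28.5%) and lower (30.4%) are the background for every gene list.

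**Figure D2:**
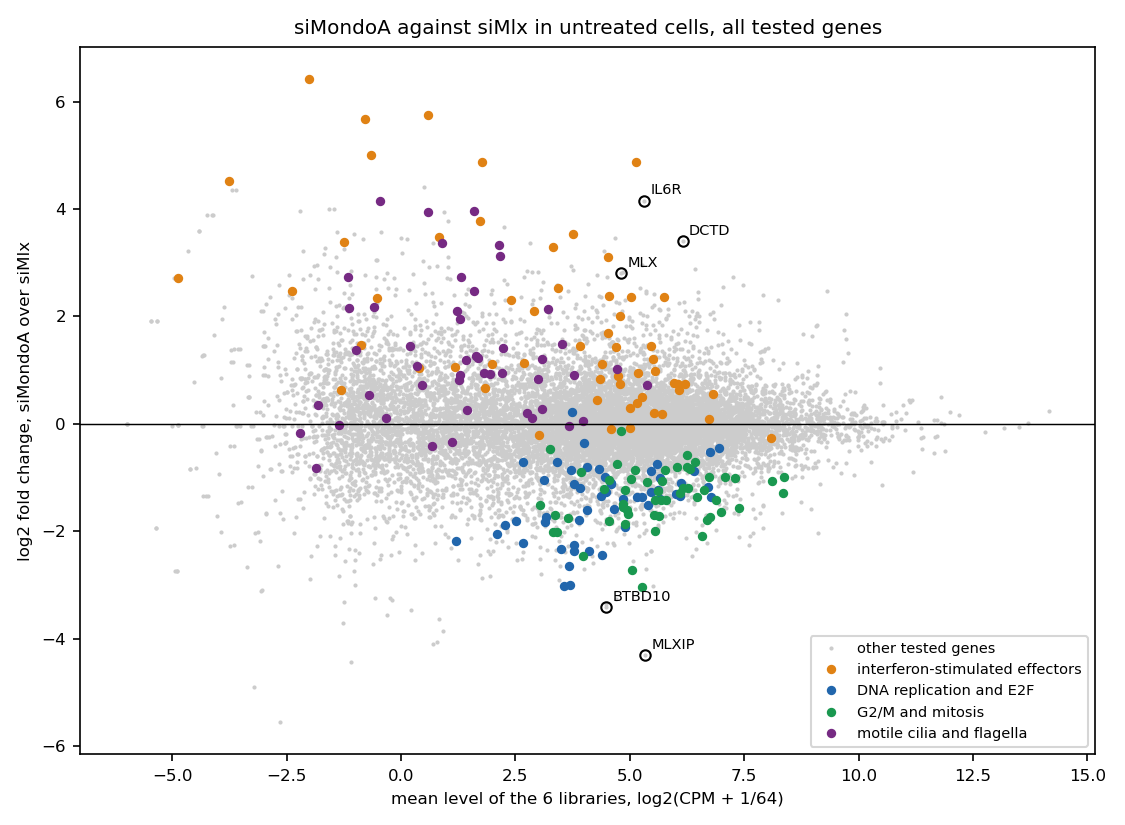
Log2 fold change of siMondoA over siMlx (vertical axis) against the mean level of the 6 libraries (horizontal axis, log2 of CPM plus a small offset) for all 13676 tested genes. Listed interferon-stimulated genes and motile cilium genes lie mostly above 0, and listed DNA replication and mitosis genes lie below 0 with 1 exception, POLD3.

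The genes with the largest differences included several of 1 kind. Among the 15 genes with the largest difference on the high side (taken among genes that passed, that had a mean of 5 CPM or more in either group, and whose libraries did not overlap) were 6 interferon-stimulated genes and 3 genes of cilia or flagella (SPEF1, DNAH7 and FANK1). Among the 15 on the low side, which included MLXIP, were the cell-cycle genes MELK, CCNE2, ORC6, CDCA7, MAD2L1 and WEE1. IL6R (chr1:154405193-154469450), the ligand-binding chain of the interleukin-6 receptor, was measured at 3.87, 3.79 and 4.96 CPM with siMlx and 75.6, 62.7 and 87.4 CPM with siMondoA. It was higher with siMondoA by the widest margin among the 9 of these 15 genes outside the interferon lists (log2 4.16, SE 0.21, adjusted p = 1.66e-12), and its siControl libraries, at 12.6, 12.4 and 20.8 CPM, lay between the groups.

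DCTD (chr4:182890060-182917936), the dCMP deaminase that feeds thymidylate synthesis, was measured at 13.2, 12.4 and 11.3 CPM with siMlx and 138, 125 and 128 CPM with siMondoA. These values gave a large difference with little spread (log2 3.40, SE 0.06, adjusted p = 4.43e-18), and siControl, at 116, 115 and 118 CPM, was close to siMondoA. SPTLC3, a subunit of serine palmitoyltransferase, the first enzyme of sphingolipid synthesis, was measured at 3.54, 3.69 and 5.63 CPM with siMlx and 45.6, 41.1 and 54.8 CPM with siMondoA (log2 3.45, SE 0.20, adjusted p = 1.77e-11). EPHA3, an ephrin receptor, RNASE4, a secreted ribonuclease, and TNFRSF11B, the decoy receptor osteoprotegerin, were higher at log2 3.67, 3.36 and 3.22 (adjusted p = 2.61e-10, 3.02e-13 and 4.2e-10). TNFRSF11B was measured at 3.93, 4.09 and 4.64 CPM with siMlx and 40.2, 41.4 and 36.5 CPM with siMondoA.

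On the low side, BTBD10 (chr11:13388001-13463297), which encodes a BTB-domain protein, was measured at 41.99, 38.7 and 41.3 CPM with siMlx and 3.62, 3.57 and 4.35 CPM with siMondoA (log2 -3.41, SE 0.08, adjusted p = 9.39e-17). Its siControl libraries, at 43.97, 39.8 and 43.3 CPM, were close to the siMlx level. B4GALT6, a lactosylceramide synthase, was measured at 38.8, 38.9 and 44.1 CPM with siMlx and 4.34, 3.86 and 3.81 CPM with siMondoA (log2 -3.34, SE 0.10, adjusted p = 1.38e-15), and DMAC2 (listed as ATP5SL), a mitochondrial complex I assembly factor, at log2 -3.25 (adjusted p = 8.81e-15). GNPDA1, glucosamine-6-phosphate deaminase 1, was measured at 78.8, 76.2 and 86.1 CPM with siMlx and 9.795, 9.78 and 10.4 CPM with siMondoA, lower with siMondoA (log2 -3.01, SE 0.08, adjusted p = 2.33e-16) and with siControl, at 40.96, 44.00 and 44.8 CPM, between the groups. PM20D2, ARSI (an arylsulfatase) and KRT81 (a hair keratin) were lower at log2 -2.70, -2.80 and -2.87 (adjusted p = 1.04e-12, 7.5e-10 and 0.000111). KRT81 reached -3.78 without siMondoA replicate 2.

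Interferon-stimulated genes were higher with siMondoA than with siMlx. Interferons act through JAK kinases on STAT proteins and IRF9, which bind interferon response elements and induce antiviral effectors such as the IFIT and OAS proteins. Of the 57 listed effectors, all tested, 40 were called higher and 1 lower, against 28.5% and 30.4% of all tested genes, and 28 were higher by at least 2-fold. Their median was log2 1.20, against -0.01 over all genes, and 1.13 when the 7 members with 3 or fewer counts in a group were set at their bound. Over all alternatives the count higher was 34 to 50, with the fewest without siMondoA replicate 2. The range ran from -0.27 for ADAR, an RNA-editing enzyme that was the 1 lower member, to 4.88 for IFIT1 among members with over 5 CPM in a group; the ADAR call ended without siMlx replicate 2 or siMondoA replicate 1 or 3.

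Promoter windows of 5 effectors are shown because they hold matches to the interferon response element; capitals mark each match to GAAANNGAAA or its reverse complement, and each stretch is trimmed to the matches and their flanks. Of the 3 matches in the IFIH1 window only the one nearest the start is shown.
IFIT1, chr10:89392487-89392549, plus strand: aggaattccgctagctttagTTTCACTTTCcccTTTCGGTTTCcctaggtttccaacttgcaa
IFIT3, chr10:89327821-89327904, plus strand: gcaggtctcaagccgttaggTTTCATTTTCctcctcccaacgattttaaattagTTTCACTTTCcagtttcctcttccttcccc
IFIH1, chr2:162318676-162318725, minus strand: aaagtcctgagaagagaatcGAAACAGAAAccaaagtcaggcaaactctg
PARP9, chr3:122564312-122564361, minus strand: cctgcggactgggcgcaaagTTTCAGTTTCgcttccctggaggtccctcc
IFITM1, chr11:313980-314063, plus strand: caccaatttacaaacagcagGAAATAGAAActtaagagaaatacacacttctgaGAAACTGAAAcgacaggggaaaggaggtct

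GAAANNGAAA was found, on either strand, in the window of 32 of the 46 listed effectors that have one (69.6%), against 4.12% of the 9830 tested genes with a window and 3.57% of all 35116 windows. IFIT1 (chr10:89392546-89406486), which binds viral RNA caps, was measured at 2.53, 2.17 and 2.35 CPM with siMlx and 57.4, 108 and 39.2 CPM with siMondoA. The groups were far apart (log2 4.88, SE 0.63, adjusted p = 1.5e-06), although the siMondoA libraries themselves were spread widely. IFIT3, a partner of IFIT1, was measured at 17.6, 15.1 and 19.8 CPM with siMlx and 81.5, 119 and 67.7 CPM with siMondoA (log2 2.36, SE 0.30, adjusted p = 1.47e-06), and IFIT2 at 2.98, 2.88 and 3.76 CPM with siMlx and 15.9, 22.3 and 17.2 CPM with siMondoA (log2 2.54, SE 0.30, adjusted p = 4.88e-07). IFIH1, the cytosolic RNA sensor MDA5, was measured at 1.29, 2.17 and 2.09 CPM with siMlx and 16.8, 23.2 and 14.5 CPM with siMondoA, with no overlap (log2 3.30, SE 0.39, adjusted p = 4.11e-07).

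PARP9, an ADP-ribosyltransferase family member, was measured at 9.94, 9.09 and 12.7 CPM with siMlx and 51.9, 67.3 and 43.5 CPM with siMondoA (log2 2.37, SE 0.28, adjusted p = 5.86e-07). IFI44L, an interferon-induced protein, was measured at 2.36, 1.82 and 2.35 CPM with siMlx and 25.7, 31.98 and 17.3 CPM with siMondoA (log2 3.54, SE 0.54, adjusted p = 1.14e-05), and IFI6, an inhibitor of viral replication, at 4.83, 5.604 and 3.97 CPM with siMlx and 32.8, 66.4 and 23.7 CPM with siMondoA (log2 3.11, SE 0.63, adjusted p = 0.000269). In these genes siMondoA replicate 2 was the highest library and replicate 3 the lowest. OAS1, which makes the activator of RNase L, was measured at 0.112, 0.353 and 0.209 CPM with siMlx and 5.23, 11.2 and 3.14 CPM with siMondoA (log2 4.87, SE 1.19, adjusted p = 0.00152), and without siMondoA replicate 2 its difference was 4.17. IFITM1, a membrane protein that blocks viral entry, stood at log2 3.78 (adjusted p = 0.00136), and at 3.17 without that library. OAS2 had 3 counts over the siMlx libraries and 189 over the siMondoA libraries, a ratio of 61.3 with an exact 95% counting interval of 20.7 to 300, and XAF1 had 0 and 31, at least 10.1-fold higher against a floor of 3 counts over the group. The XAF1 call ended without siMondoA replicate 2 or any 1 siMlx library; both genes were chosen after their values were seen. MX1, a dynamin-like antiviral protein chosen in the same way, did not pass the test (0.225, 0.454 and 0.261 CPM with siMlx and 0.334, 0.797 and 0.242 CPM with siMondoA; log2 0.63, adjusted p = 0.491).

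The summed level of the 57 effectors was 1234 to 1263 CPM in the siMlx libraries and 1756 to 2453 CPM in the siMondoA libraries, and the groups did not overlap. In the siControl libraries it was 2058 to 3629 CPM, the highest of them being replicate 1. Against those shared controls the median of the list was log2 -0.37 for siMondoA and -1.74 for siMlx. IFIT1, for example, was at log2 -0.77 with siMondoA and -5.65 with siMlx, and IFIH1 at -0.12 and -3.41.

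Upstream of the effectors, 13 of 21 tested genes of interferon signalling and sensing were higher and 4 lower (61.9% higher and 19% lower, against 28.5% and 30.4% of all tested genes), with a median of log2 0.37. IRF9, a DNA-binding subunit of the interferon-activated STAT complex, was measured at 9.88, 10.8 and 9.44 CPM with siMlx and 49.03, 57.3 and 42.01 CPM with siMondoA (log2 2.31, SE 0.17, adjusted p = 6.81e-10). STAT2 was measured at 16.4, 15.1 and 14.6 CPM with siMlx and 62.1, 72.4 and 54.04 CPM with siMondoA (log2 2.04, SE 0.16, adjusted p = 1.02e-09), so both were more than 4-fold higher with siMondoA. The receptor chain IFNAR2 and the repressor IRF2 were higher at log2 0.92 and 0.76 (adjusted p = 1.74e-07 and 5.48e-07). In the other direction, IFNGR1, the ligand-binding chain of the interferon-gamma receptor, was measured at 18.6, 17.4 and 18.2 CPM with siMlx and 3.73, 4.196 and 3.99 CPM with siMondoA, lower with siMondoA (log2 -2.18, SE 0.09, adjusted p = 1.92e-13). The windows of IRF9 and STAT2 held no GAAANNGAAA.

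Genes of antigen presentation by MHC class I moved the same way by smaller amounts. Of 19 tested genes, 13 were higher and 0 lower (68.4% higher and 0% lower, against 28.5% and 30.4% of all tested genes), with a median of log2 0.24, and all 19 fitted values were above 0. The count of lower members was 0 in edgeR, 0 at an unadjusted p under 0.05 and 0 in DESeq2. B2M, the invariant light chain, was measured at 302, 325 and 359 CPM with siMlx and 599.6, 577 and 501 CPM with siMondoA (log2 0.77, SE 0.09, adjusted p = 4.2e-07). PSMB9, a subunit of the immunoproteasome, differed most, at 1.52, 1.06 and 1.51 CPM with siMlx and 5.06, 6.21 and 5.08 CPM with siMondoA (log2 2.01, SE 0.33, adjusted p = 2.51e-05). PDIA3, ERAP1, PSME1 and HLA-E, which load, trim, generate or present peptides, were higher at log2 0.44, 0.48, 0.46 and 0.47 (adjusted p = 1.19e-06, 6.36e-06, 1.06e-05 and 2.91e-05). The element GAAANNGAAA was in the window of 11 of 15 of these genes (73.3%).

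Genes of DNA replication and mitosis were lower with siMondoA. E2F factors drive genes of the G1/S transition, among them the MCM helicase and DNA polymerases, and the DREAM and MuvB complexes act through the cell cycle homology region in promoters of G2/M genes. Of 52 tested genes of DNA replication and E2F, 51 were called lower and 0 higher, 39 of them by at least 2-fold, with a median of log2 -1.34. Of 55 tested genes of G2/M and mitosis, 54 were lower and 0 higher, 41 by at least 2-fold, with a median of log2 -1.28; the 1 not called was KIF4A, and in the replication list it was POLD3. In both lists the count of higher members was 0 in edgeR, 0 at an unadjusted p under 0.05 and 0 in DESeq2, and 30.4% of all tested genes were called lower. In bulk RNA, fewer cycling cells and less of these RNAs per cell cannot be told apart.

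Windows are shown for genes of either list with a match to an element known for that class of genes: the E2F site TTTGGCGC for the replication genes E2F1, CDC6 and POLE, and the homology region TTTGAA for the mitotic genes MAD2L1, PLK1 and CDK1, on either strand, in capitals.
E2F1, chr20:33686378-33686425, minus strand: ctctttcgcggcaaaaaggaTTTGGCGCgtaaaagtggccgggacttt
CDC6, chr17:40287866-40287913, plus strand: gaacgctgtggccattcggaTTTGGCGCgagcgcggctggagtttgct
POLE, chr12:132687333-132687380, minus strand: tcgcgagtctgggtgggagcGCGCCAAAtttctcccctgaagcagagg
MAD2L1, chr4:120066799-120066844, minus strand: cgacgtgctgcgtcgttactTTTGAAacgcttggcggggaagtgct
PLK1, chr16:23678840-23678885, plus strand: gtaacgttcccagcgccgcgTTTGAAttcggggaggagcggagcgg
CDK1, chr10:60778389-60778512, plus strand: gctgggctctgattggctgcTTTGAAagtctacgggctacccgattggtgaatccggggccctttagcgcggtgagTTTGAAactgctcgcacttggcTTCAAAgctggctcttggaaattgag

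TTTGGCGC was in the window of 11 of 43 replication genes with one (25.6%), against 1.38% of tested genes and 0.652% of all windows. TTTGAA was in 35 of 49 mitotic genes (71.4%), against 14% of tested genes and 15.2% of all windows; neither pattern contains the other, and a match describes letters, not binding. ORC6, a subunit of the origin recognition complex, was measured at 19.5, 21.9 and 27.7 CPM with siMlx and 1.73, 3.57 and 3.26 CPM with siMondoA (log2 -2.99, SE 0.19, adjusted p = 8.51e-11). CDT1, which loads the MCM helicase, was measured at 32.1, 36.3 and 37.2 CPM with siMlx and 5.06, 5.75 and 8.77 CPM with siMondoA (log2 -2.45, SE 0.17, adjusted p = 1.93e-10), and E2F1 at 24.3, 31.4 and 30.6 CPM with siMlx and 4.45, 4.74 and 7.86 CPM with siMondoA (log2 -2.36, SE 0.18, adjusted p = 7.5e-10). CCNE2, the cyclin that activates CDK2 at S-phase entry, fell from 20.8 ± 5.32 CPM with siMlx to 2.63 ± 1.34 with siMondoA (mean ± SD, n = 3; log2 -3.01, SE 0.28, adjusted p = 1.41e-08).

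POLE, POLA1 and POLA2, subunits of replicative polymerases, were lower at log2 -1.24, -1.60 and -1.37 (adjusted p = 1.84e-10, 1.31e-09 and 1.59e-09). MELK, a mitotic kinase, was measured at 58.9, 65.7 and 81.1 CPM with siMlx and 7.46, 6.798 and 11.2 CPM with siMondoA (log2 -3.03, SE 0.16, adjusted p = 5.41e-12). MAD2L1, the spindle checkpoint protein, was measured at 48.8, 57.7 and 66.05 CPM with siMlx and 8.24, 7.596 and 10.5 CPM with siMondoA (log2 -2.73, SE 0.14, adjusted p = 3.58e-12), and WEE1, the kinase that inhibits CDK1, at 62.5, 70.2 and 79.9 CPM with siMlx and 9.85, 9.78 and 13.5 CPM with siMondoA (log2 -2.69, SE 0.12, adjusted p = 5.98e-13). The siMlx and siMondoA libraries of these genes lay far apart, with siMondoA replicate 3 the highest of its group. CCNA2, CDC20, PLK4 and PLK1 were lower at log2 -2.08, -1.79, -2.45 and -1.64 (adjusted p = 2.53e-09, 7.65e-09, 8.74e-09 and 1.85e-08).

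The third siMondoA library stood nearer to siMlx in the sums of these lists. The third library was also the highest of the siMlx and siControl groups in both sums, at 6408 and 2788 CPM with siControl. The summed level of the mitotic list was 4959, 5205 and 6146 CPM with siMlx and 1847, 2058 and 2981 CPM with siMondoA, and that of the replication list 2047 to 2536 and 909 to 1227 CPM. MKI67, which encodes the proliferation marker Ki-67, was measured at 288, 185 and 278 CPM with siMlx and 42.7, 69.03 and 143 CPM with siMondoA (log2 -1.56, SE 0.32, adjusted p = 0.000281), and without siMondoA replicate 3 its difference was -2.15. LMNB1, the lamin B1 gene, was measured at 121, 140.0 and 144 CPM with siMlx and 30.9, 35.8 and 53.4 CPM with siMondoA (log2 -1.76, SE 0.15, adjusted p = 7.94e-09), and TMPO, which encodes lamina-associated polypeptide 2, was lower too (log2 -1.45, adjusted p = 3.22e-09). Over the 9 untreated libraries the mitotic genes were at a median of log2 -1.30 with siMondoA and 0.00 with siMlx against the shared siControl libraries, and the replication genes at -1.42 and -0.07.

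CDKN1A and CDKN2A, inhibitors well known from senescent cells, did not pass the test. CDKN1A, which encodes p21, was measured at 581, 529.6 and 548 CPM with siMlx and 543, 462 and 496 CPM with siMondoA (log2 -0.14, SE 0.08, adjusted p = 0.111; -0.21 and 0.0397 without siMondoA replicate 1), and both groups stood above the siControl libraries, at 223, 220.0 and 241 CPM. CDKN2A, which encodes p16 and ARF, was measured at 127, 144 and 108 CPM with siMlx and 126, 129.7 and 128 CPM with siMondoA (log2 0.02, SE 0.11, adjusted p = 0.894). Of 21 cyclins, kinases and inhibitors, 5 were higher and 12 lower (23.8% higher and 57.1% lower, against 28.5% and 30.4% of all tested genes). CDKN2C, which encodes the inhibitor p18, was lower (log2 -1.19, adjusted p = 1.24e-07), and CDKN2B, which encodes p15 and was singled out after its values were seen, was higher (log2 0.74, adjusted p = 0.00136). CDK2, the partner of cyclin E, was lower (log2 -1.69, adjusted p = 3.75e-11) and CDK6, a partner of D cyclins, higher (log2 0.71, adjusted p = 3.34e-09). Of 38 tested p53 targets, 7 were higher and 22 lower (18.4% higher and 57.9% lower), with a median of log2 -0.31. Against the shared siControl libraries their median was log2 0.24 with siMondoA and 0.48 with siMlx. GADD45A, a stress sensor, was lower (log2 -1.19, adjusted p = 7.81e-08) and RRM2B, the p53-induced ribonucleotide reductase subunit, higher (log2 0.94, adjusted p = 1.9e-10).

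Repair genes of double-strand breaks were also lower, 31 of 45 tested against 4 higher (8.89% higher and 68.9% lower, against 28.5% and 30.4% of all tested genes), with a median of log2 -0.71. MDC1, a scaffold at DNA breaks, was measured at 64.95, 54.5 and 59.3 CPM with siMlx and 24.2, 24.8 and 27.7 CPM with siMondoA (log2 -1.22, SE 0.08, adjusted p = 8.59e-11). CHEK1, FANCG, BRIP1 and FANCD2 were lower at log2 -1.20, -1.85, -1.52 and -1.83 (adjusted p = 3.09e-10, 2.48e-09, 4.83e-09 and 1.71e-08). Ribosome biogenesis genes were lower for 35 of 44 tested members and higher for 2 (4.55% higher and 79.5% lower), at a median of log2 -0.38. Against the shared siControl libraries their median was log2 -0.10 with siMondoA and 0.31 with siMlx. NOP56, a box C/D snoRNP core protein, was measured at 140.3, 139 and 147 CPM with siMlx and 71.4, 75.3 and 79.1 CPM with siMondoA (log2 -0.92, SE 0.07, adjusted p = 4.74e-10), and NCL, nucleolin, at log2 -0.68 (adjusted p = 3.07e-09). Of 81 cytosolic ribosomal protein genes, 28 were lower and 3 higher (3.7% higher and 34.6% lower), so the share lower was near that of all genes, at a median of -0.11.

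**Figure D3:**
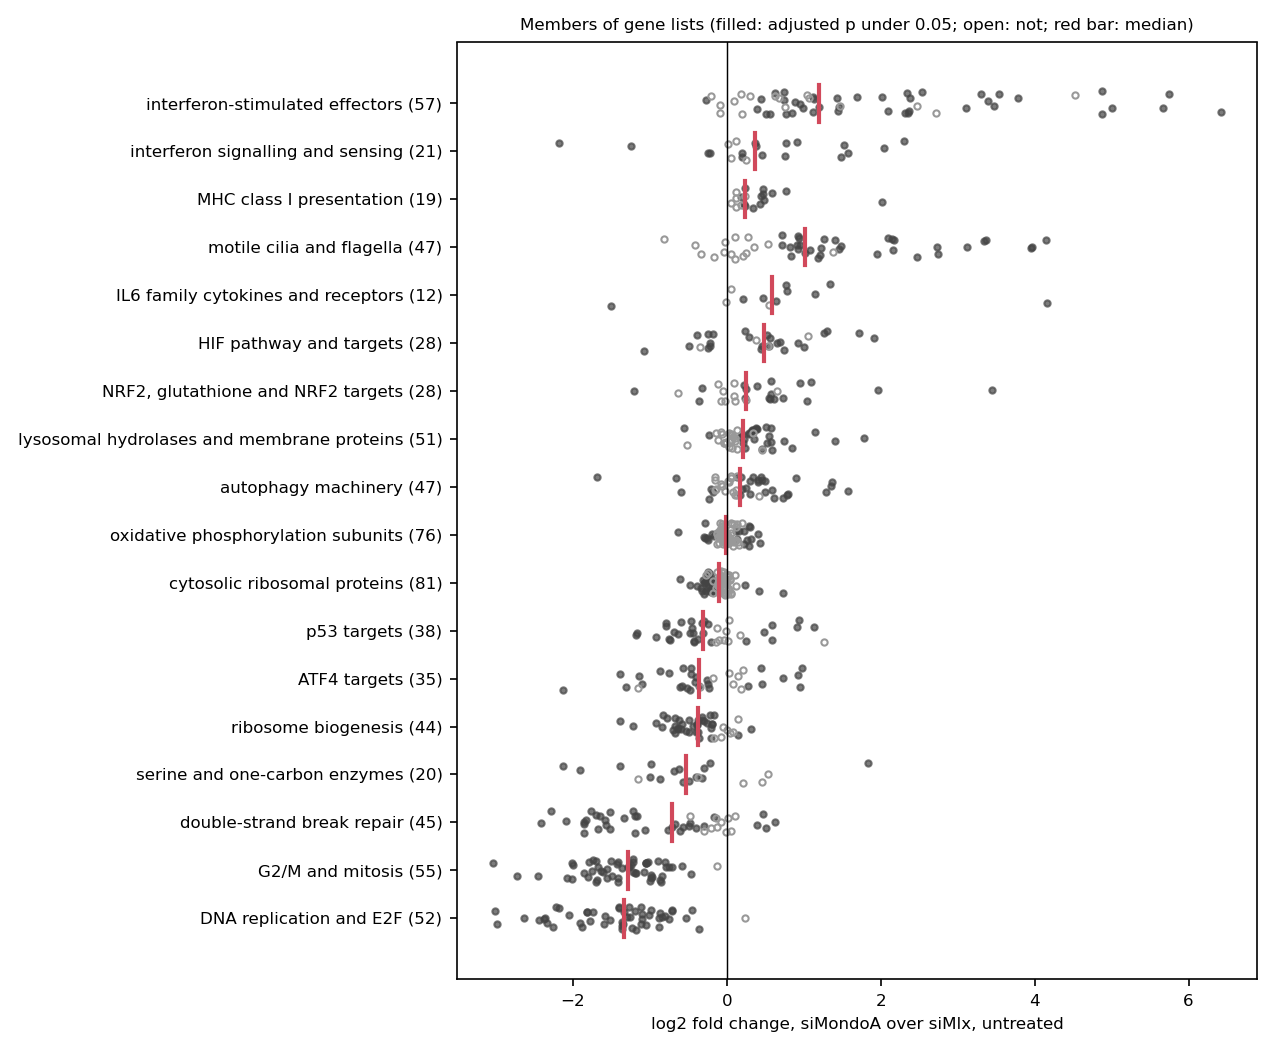
Log2 fold change of siMondoA over siMlx (horizontal axis) for the tested members of 18 gene lists (rows, number tested in brackets); filled points passed the test, open points did not, and red bars are medians. Medians run from 1.20 for interferon-stimulated effectors to -1.34 for DNA replication genes, and the oxidative phosphorylation subunits lie close to 0.

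Genes of motile cilia and flagella were higher with siMondoA. Their products build the axoneme, with its dynein arms and radial spokes, and RPE-1 cells form only a primary cilium, which lacks them. Of 72 listed genes 47 passed the filter on low counts, of which 32 were called higher, 23 of them by at least 2-fold (68.1% higher and 0% lower, against 28.5% and 30.4% of all tested genes; median log2 1.01). The count of lower members was 0 in edgeR, 0 at an unadjusted p under 0.05 and 0 in DESeq2. The filter can pass a gene through the group in which it is high, so these counts describe the 47 and not the 72. SPEF1, a microtubule-bundling protein of the ciliary central apparatus, was measured at 0.505, 0.252 and 0.313 CPM with siMlx and 5.68, 5.29 and 5.92 CPM with siMondoA (log2 3.97, SE 0.30, adjusted p = 8.11e-10). DNAH7, an axonemal dynein heavy chain, was measured at 1.07, 0.808 and 0.522 CPM with siMlx and 7.24, 9.02 and 7.86 CPM with siMondoA (log2 3.33, SE 0.26, adjusted p = 1.69e-09), and FANK1, an ankyrin-repeat protein of testis, at 1.24, 0.858 and 0.678 CPM with siMlx and 9.18, 8.69 and 6.17 CPM with siMondoA (log2 3.12, SE 0.28, adjusted p = 1.25e-08).

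RSPH3, a radial spoke protein, was measured at 6.12, 6.11 and 5.84 CPM with siMlx and 17.6, 15.1 and 17.8 CPM with siMondoA (log2 1.48, SE 0.11, adjusted p = 6.51e-10). PIERCE1 (listed as C9orf116), a microtubule inner protein, and CFAP69 (listed as C7orf63) were higher at log2 2.15 and 2.73 (adjusted p = 1.09e-09 and 1.53e-08). All 6 were low genes, the highest at under 20 CPM, and none of their groups overlapped. The summed level of the 47 was 159.5 to 169 CPM with siMlx, 311 to 318 with siMondoA and 189 to 190.1 with siControl, so the siMondoA libraries were the high group. Against the shared siControl libraries SPEF1 was at log2 2.76 with siMondoA and -1.21 with siMlx, and FANK1 at 2.63 and -0.49.

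Metabolic genes differed enzyme by enzyme. PRDX3 (chr10:119167703-119178833), the mitochondrial peroxiredoxin, was measured at 254, 273 and 283 CPM with siMlx and 63.9, 64.6 and 58.8 CPM with siMondoA, lower with siMondoA (log2 -2.11, SE 0.05, adjusted p = 2.01e-16), and at 236, 237 and 244 CPM with siControl. Among 31 tested thioredoxin, peroxiredoxin and antioxidant genes 4 were higher and 11 lower (12.9% higher and 35.5% lower, against 28.5% and 30.4% of all tested genes), at a median of log2 -0.01. RPIA (chr2:88691644-88750935), ribose-5-phosphate isomerase of the pentose phosphate pathway, was measured at 18.98, 19.7 and 18.8 CPM with siMlx and 2.89, 2.18 and 2.66 CPM with siMondoA (log2 -2.90, SE 0.14, adjusted p = 1.07e-12), and its siControl libraries at 4.48, 3.97 and 5.23 CPM. The RPIA difference was thus mostly a level above control with siMlx. In the same pathway TKT, transketolase, was higher with siMondoA (log2 0.61, adjusted p = 2.53e-08).

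Of 17 genes of deoxynucleotide synthesis 5 were higher and 10 lower (29.4% higher and 58.8% lower, against 28.5% and 30.4% of all tested genes), so the share higher was near that of all genes, and the median was log2 -0.69. Beside DCTD, CMPK1, the UMP/CMP kinase, was higher, at 48.3, 44.8 and 48.5 CPM with siMlx and 191, 178 and 179 CPM with siMondoA (log2 1.95, SE 0.06, adjusted p = 5.22e-16). RRM2, the S-phase subunit of ribonucleotide reductase, was lower, at 263, 318 and 381 CPM with siMlx and 54.7, 58.8 and 89.8 CPM with siMondoA (log2 -2.25, SE 0.19, adjusted p = 6.15e-09), and so was TYMS, thymidylate synthase (log2 -1.91, adjusted p = 3.55e-10). Serine and one-carbon enzymes were lower for 14 of 20 genes and higher for 1 (5% higher and 70% lower), at a median of log2 -0.53. MTHFD2, the mitochondrial folate enzyme, was measured at 119.8, 126 and 119 CPM with siMlx and 25.9, 31.3 and 25.9 CPM with siMondoA (log2 -2.13, SE 0.09, adjusted p = 1.72e-13), and its libraries did not overlap. PSAT1, of serine synthesis, was lower (log2 -1.39, adjusted p = 3.72e-11). Of 35 ATF4 targets, a list that shares MTHFD2 and PSAT1 with the last, 20 were lower and 7 higher (20% higher and 57.1% lower), at a median of log2 -0.37. Against the shared siControl libraries the median of the ATF4 list was log2 0.01 with siMondoA and 0.42 with siMlx.

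In glycolysis and pyruvate use 10 of 32 genes were higher and 16 lower (31.2% higher and 50% lower, against 28.5% and 30.4% of all tested genes), so the share higher was near that of all genes, and the median was log2 -0.11. PFKM, the muscle isoform of phosphofructokinase, and PDK2, an inhibitor of pyruvate dehydrogenase, were higher (32.2, 31.3 and 30.7 CPM with siMlx and 75.97, 75.6 and 75.6 CPM with siMondoA for PFKM; log2 1.27 and 1.75, adjusted p = 1.08e-13 and 1.34e-12). PGAM1, phosphoglycerate mutase, was lower at 989, 1078 and 1025 CPM with siMlx and 559.7, 549.6 and 534 CPM with siMondoA (log2 -0.91, SE 0.05, adjusted p = 3.52e-12), and SLC16A1, the lactate carrier MCT1, at log2 -1.02 (adjusted p = 2.4e-10). TIGAR (listed as C12orf5), a fructose bisphosphatase, was lower (log2 -1.17, adjusted p = 2.35e-09). Of 24 tested genes of sphingolipid synthesis 8 were higher and 6 lower (33.3% higher and 25% lower), near the shares of all genes, at a median of log2 0.05. Beside SPTLC3, the sphingomyelin synthases SGMS2 and SGMS1 were among the higher ones (log2 1.21 and 1.49, adjusted p = 8.04e-11 and 1.36e-08). Oxidative phosphorylation subunits differed little: 12 of 76 were higher and 9 lower (15.8% higher and 11.8% lower), and their values lay between log2 -0.64 and 0.43.

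Autophagy and lysosome genes were more often higher than lower with siMondoA, by small amounts. Of 47 tested autophagy genes 24 were higher and 6 lower (51.1% higher and 12.8% lower, against 28.5% and 30.4% of all tested genes), with a median of log2 0.17, and of 51 lysosomal genes 26 were higher and 2 lower (51% higher and 3.92% lower), with a median of 0.21. RUBCN (listed as KIAA0226), which encodes the autophagy inhibitor Rubicon, was measured at 14.3, 13.9 and 14.5 CPM with siMlx and 34.2, 36.2 and 38.6 CPM with siMondoA (log2 1.35, SE 0.10, adjusted p = 1.03e-09), and its siControl libraries at 33.04, 34.3 and 36.8 CPM were close to siMondoA. ATG14, a subunit of the PI3-kinase complex that starts autophagosomes, was measured at 5.11, 6.16 and 5.84 CPM with siMlx and 16.5, 17.04 and 17.7 CPM with siMondoA (log2 1.58, SE 0.11, adjusted p = 3.33e-10). ATG2B, a lipid transporter, CALCOCO2, a cargo receptor, and ATG13, of the initiating kinase complex, were higher at log2 1.36, 1.28 and 0.90 (adjusted p = 9.68e-13, 3.59e-11 and 1.2e-10). WDR45B, a phosphoinositide-binding protein, was lower (log2 -0.60, adjusted p = 2.5e-08). TFEB, a regulator of lysosomal genes, was measured at 4.27, 4.59 and 5.01 CPM with siMlx and 4.45, 5.46 and 5.08 CPM with siMondoA, with no difference past the test (log2 0.12, adjusted p = 0.422).

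LAMP2, the lysosomal membrane protein, was measured at 142, 143 and 148 CPM with siMlx and 335, 306 and 314 CPM with siMondoA (log2 1.14, SE 0.07, adjusted p = 1.09e-10), and ARSB, arylsulfatase B, at 15.4, 14.4 and 14.8 CPM with siMlx and 52.1, 49.1 and 51.5 CPM with siMondoA (log2 1.78, SE 0.07, adjusted p = 4.39e-14). PPT1 and GM2A, which degrade lipid-modified proteins and gangliosides, were higher at log2 0.85 and 1.41 (adjusted p = 3.22e-11 and 1.13e-10). BNIP3L, a mitophagy receptor and HIF target, was measured at 52.5, 59.2 and 59.4 CPM with siMlx and 197, 176 and 188 CPM with siMondoA (log2 1.71, SE 0.07, adjusted p = 4.26e-14). Of 28 genes of the HIF pathway 16 were higher and 8 lower (57.1% higher and 28.6% lower, against 28.5% and 30.4% of all tested genes; median log2 0.49). Higher members included ARNT, the HIF-1 beta subunit (log2 1.26, adjusted p = 1.11e-11), and ANGPTL4, a lipase inhibitor (log2 1.90, adjusted p = 8.34e-09). Of 28 NRF2 and glutathione genes 15 were higher and 3 lower (53.6% higher and 10.7% lower; median log2 0.25). FTH1, the ferritin heavy chain, was higher (log2 1.04, adjusted p = 3.04e-10) and HMOX1, heme oxygenase 1, lower (log2 -1.21, adjusted p = 7.5e-07).

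Receptors and signal transducers gave some of the clearest contrasts between related genes. In the IL6 family 8 of 12 tested genes were higher and 1 lower (66.7% higher and 8.33% lower, against 28.5% and 30.4% of all tested genes), at a median of log2 0.59. Beside IL6R, STAT3, the transducer of IL6, was measured at 88.8, 85.98 and 81.96 CPM with siMlx and 195, 199.8 and 171 CPM with siMondoA (log2 1.14, SE 0.06, adjusted p = 7.48e-12), and SOCS3, its feedback inhibitor, was higher (log2 0.77, adjusted p = 9.4e-06). IL6 itself was measured at 4.098, 2.78 and 3.39 CPM with siMlx and 4.51, 6.59 and 4.59 CPM with siMondoA, and its small difference (log2 0.64, SE 0.21, adjusted p = 0.0134) no longer passed the test without siMlx replicate 2 or siMondoA replicate 2. The related cytokine gene IL11 was lower (log2 -1.50, adjusted p = 6.5e-06). Of 43 listed secreted factors of senescent cells 32 passed the filter on low counts. Of these 32, 12 were higher and 5 lower (37.5% higher and 15.6% lower), with a median of log2 0.01.

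In the Notch pathway, NOTCH2 was measured at 143, 134 and 134 CPM with siMlx and 379.7, 364 and 342 CPM with siMondoA (log2 1.40, SE 0.07, adjusted p = 9.68e-13) and NOTCH1 at 52.8, 50.8 and 45.3 CPM with siMlx and 13.5, 15.1 and 17.6 CPM with siMondoA (log2 -1.69, SE 0.11, adjusted p = 1.18e-10), so the paralogues differed in opposite directions. In the BCL2 family, BMF, a pro-apoptotic BH3-only protein, was measured at 26.8, 28.3 and 28.5 CPM with siMlx and 126, 121 and 112 CPM with siMondoA (log2 2.1, SE 0.09, adjusted p = 2.53e-13), and BCL2, the founding survival protein, at 12.6, 12.8 and 16.3 CPM with siMlx and 2.78, 2.098 and 2.48 CPM with siMondoA (log2 -2.51, SE 0.15, adjusted p = 2.25e-11). BCL2L1, which encodes the survival protein BCL-XL, was higher (log2 0.71, adjusted p = 5.22e-08). SMAD2 and SMAD4, transducers of TGF-beta, were lower at log2 -1.30 and -1.18, whereas the receptor TGFBR2 was higher at 0.83 (adjusted p = 5.08e-12, 2.6e-12 and 6.56e-08). PDGFRA and MET, receptor tyrosine kinases, were higher and EPHB2 lower, at log2 1.72, 0.99 and -1.07 (adjusted p = 2.54e-11, 3.03e-11 and 1.12e-10). Among immediate early factors NR4A2 and NR4A3, orphan nuclear receptors, were higher (log2 2.36 and 2.34, adjusted p = 3.05e-08 and 7.36e-08) and FOSL1, an AP-1 subunit, was lower (log2 -1.31, adjusted p = 4.66e-08). KLF5 was higher and KLF7 lower (log2 1.79 and -1.15, adjusted p = 6.37e-11 and 1.43e-08).

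Genes of the RNA interference machinery, through which both siRNAs act, were also unequal: 9 of 13 were lower with siMondoA (69.2%, against 30.4% of all tested genes; median log2 -0.32) and 0 higher in edgeR, with 0 higher at an unadjusted p under 0.05 and 0 in DESeq2. AGO2, the slicing Argonaute, was measured at 63.8, 58.8 and 55.8 CPM with siMlx and 23.6, 27.5 and 24.8 CPM with siMondoA (log2 -1.23, SE 0.08, adjusted p = 7.23e-11), and DICER1, which cuts precursors, at 146, 133 and 154 CPM with siMlx and 91.8, 95.2 and 94.2 CPM with siMondoA (log2 -0.62, SE 0.06, adjusted p = 4.04e-08). Of 75 listed histone genes 21 passed the filter on low counts, which can pass a gene through the group in which it is high. Of these 21, 12 were called higher and 2 lower (57.1% higher and 9.52% lower, against 28.5% and 30.4% of all tested genes). Their median was log2 0.89. Their summed level went the other way, at 284 to 363 CPM with siMlx and 212 to 232 CPM with siMondoA. HIST2H2BE, a histone H2B gene, rose from 3.03 ± 0.452 to 23.2 ± 5.23 CPM (mean ± SD, n = 3; log2 2.94, SE 0.15, adjusted p = 3.1e-12), and H2AFX was lower (log2 -1.57, adjusted p = 5.55e-08). Of 6 tested non-polyadenylated RNAs, a measure of how strictly a library selected poly(A) RNA, 1 was lower and 0 higher in edgeR, with 0 higher at an unadjusted p under 0.05 and 0 in DESeq2. The lower one, the ribosomal precursor RNA45S5 (log2 -0.99, adjusted p = 0.0219), did not pass without siMlx replicate 2 or siMondoA replicate 1.

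Summed levels of cell type markers differed as well. The summed level of 7 tested markers of retinal pigment epithelium was 366 to 458 CPM with siMlx and 634 to 848 CPM with siMondoA, carried by KRT18 and KRT8. That of 10 fibroblast markers was 4823 to 5332 and 3542 to 3997 CPM, a sum carried by VIM (log2 -0.50, adjusted p = 9.71e-05). By gene, 5 of these 10 were called higher, among them PDGFRA, and 2 lower, and their median was log2 0.29. The sum of 6 blood and endothelial markers was 67.8 to 85.5 and 103 to 125 CPM, mostly CD68. Several markers of other cells were near 0. KRT14, RBFOX3, HBB and CDH5 had 0 counts in all 6 libraries, and CD3E, KRT5 and EPCAM at most 1 in a library. None of 5 listed epithelial markers passed the filter. Of 5 listed neural markers 2 passed it, and these were expressed. TUBB3 had 24096 counts over the siMlx libraries and 18786 over the siMondoA libraries, and MAP2 had 1944 and 1926. The part of these levels in the other differences was not tested.

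The same contrast was made in DXR-treated cells, with 6 other libraries. Their column names carry D5 where those of untreated cells carry D0. Differences between the conditions that go with the drug and with this code cannot be told apart. There 5331 genes were called (39%), 2591 higher (18.9%) and 2740 lower (20%). Of the genes called in untreated cells 49.6% were called in the same direction with DXR, and of those called with DXR 75.1% were called in the same direction in untreated cells, 4001 genes in all, against 191 called in opposite directions. Over all tested genes, which are not independent replicates, the log2 fold changes of both conditions had Pearson's r of 0.637 and Spearman's rho of 0.643, as a description, and their median size was 0.372 in untreated and 0.231 in DXR-treated cells. The test of the difference between the conditions (interaction) called 4007 genes (29.3%), 1960 with a higher (14.3%) and 2047 with a lower value (15%) in untreated cells.

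Gene groups differed in how they carried over. All 57 interferon-stimulated effectors were called higher with siMondoA under DXR, against 18.9% of all tested genes, with a median of log2 2.57. For 32 of them the difference between the conditions passed the test, always with a higher value under DXR. Of all tested genes 29.3% passed that test in either direction. IFIT2 went from log2 2.54 in untreated to 5.74 in DXR-treated cells (interaction adjusted p = 1.24e-05), and MX1 from 0.63 to 4.37 (0.00545). IFIT1, at 4.88 and 3.62, did not differ past the test (0.272). The summed level was 2005 to 3328 CPM with siMlx and 11915 to 15446 CPM with siMondoA under DXR.

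Proliferation genes did the reverse. The median of the replication list was log2 -0.09 under DXR, with 4 members higher and 7 lower, and 49 of the 52 differed between the conditions, against 29.3% of all tested genes. Of all tested genes 18.9% were called higher and 20% lower under DXR, the background for the DXR counts of these lists. In the mitotic list the median was -0.44, with 15 lower and 1 higher, and 37 of 55 differed. Their summed levels under DXR were low in both groups compared with untreated cells, at 759.8 to 878 CPM with siMlx and 551 to 769 CPM with siMondoA for the mitotic list. MELK went from log2 -3.03 to -0.52 (interaction adjusted p = 6.26e-07) and CDCA7 from -2.82 to -0.14 (0.00269). For the cilium list the median was 0.58, with 26 higher and 1 lower, and 17 of 47 differed between the conditions.

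**Figure D4:**
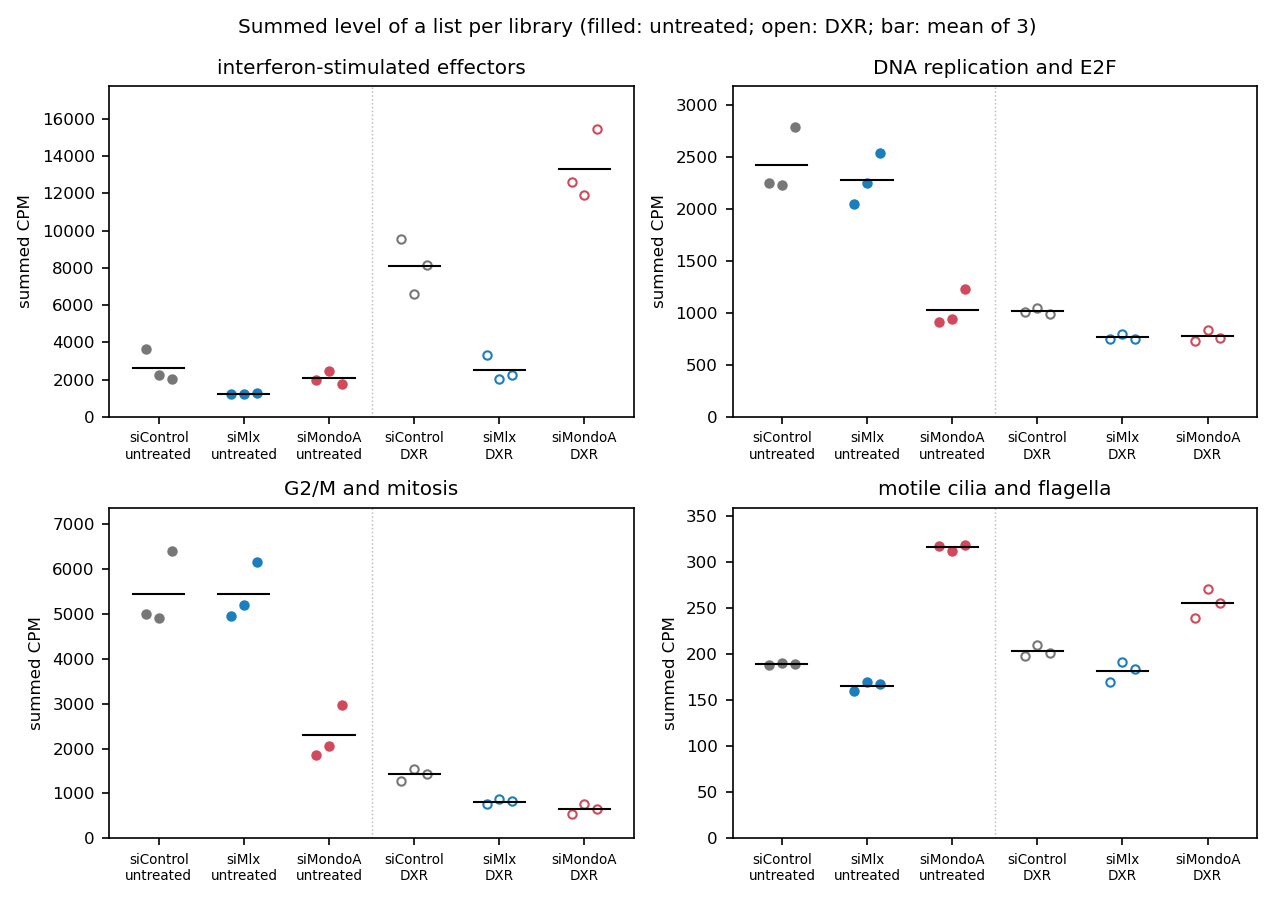
Summed CPM (vertical axes, from 0) of 4 gene lists in each of the 18 libraries, by siRNA and treatment; each point is a library and each bar a mean of 3. The effectors are lowest with siMlx in both conditions, and the replication and mitosis genes separate siMondoA from siMlx in untreated cells but hardly under DXR.

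The siRNA targets differed in the same direction in both conditions. MLXIP was lower by log2 -4.30 in untreated and -4.88 in DXR-treated cells (interaction log2 0.58, adjusted p = 0.0338). MLX was higher with siMondoA by log2 2.81 and 2.99 (interaction adjusted p = 0.241), and RUBCN (KIAA0226) by 1.35 and 1.49 (0.491). PRDX3 was lower by log2 -2.11 and -1.30 (interaction log2 -0.81, adjusted p = 2.61e-07). TXNIP, higher in all 6 DXR libraries than in any of the untreated 6, passed the test there, at 6.396, 13.3 and 8.64 CPM with siMlx and 4.15, 3.85 and 4.85 with siMondoA (log2 -1.15, adjusted p = 0.00206), but the conditions did not differ past the test (interaction log2 0.28, adjusted p = 0.732).

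Of the 10 genes named for the smallest interaction p, 9 had a smaller difference under DXR. KIF1C, a kinesin motor, was measured at 139, 123 and 127 CPM with siMlx and 321, 322 and 341 CPM with siMondoA in untreated cells and at 363, 352 and 389 and 341, 371 and 363 CPM under DXR (interaction log2 1.38, adjusted p = 3.1e-09). TGOLN2, a protein of the trans-Golgi network, was measured at 51.8, 46.8 and 55.5 CPM with siMlx and 305, 317 and 299 CPM with siMondoA in untreated cells (interaction log2 1.46, adjusted p = 6.58e-09), and its difference of log2 2.58 became 1.12. KIF3B, SLC6A6 (the taurine carrier) and CMTM6, which stabilizes PD-L1, went from log2 1.84, 1.40 and 2.54 to 0.68, 0.18 and 1.05. On the low side PTK2 (focal adhesion kinase), MAP4K4, PNRC2 and FKBP5 went from log2 -1.68, -2.02, -2.22 and -2.21 to -0.83, -1.01, -0.96 and -0.18.

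Of the 4192 genes called in both conditions 191 changed sign. SMCHD1, a chromatin protein of X inactivation, was lower with siMondoA in untreated cells (log2 -0.69) and higher under DXR (0.73; interaction log2 -1.42, adjusted p = 4.12e-08). CD274, which encodes PD-L1 and was singled out after its values were seen, was the 1 gene called in opposite directions at 2-fold or more in each condition. It was measured at 20.4, 17.97 and 19.1 CPM with siMlx and 7.51, 6.92 and 6.65 CPM with siMondoA without drug (log2 -1.45, SE 0.19, adjusted p = 1.84e-06), and at 19.1, 16.2 and 15.1 CPM with siMlx and 49.6, 33.9 and 54.5 CPM with siMondoA under DXR (log2 1.45, adjusted p = 6.83e-07), with no overlap in either. The siMlx values of both conditions overlapped, whereas the siMondoA values did not.

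**Figure D5:**
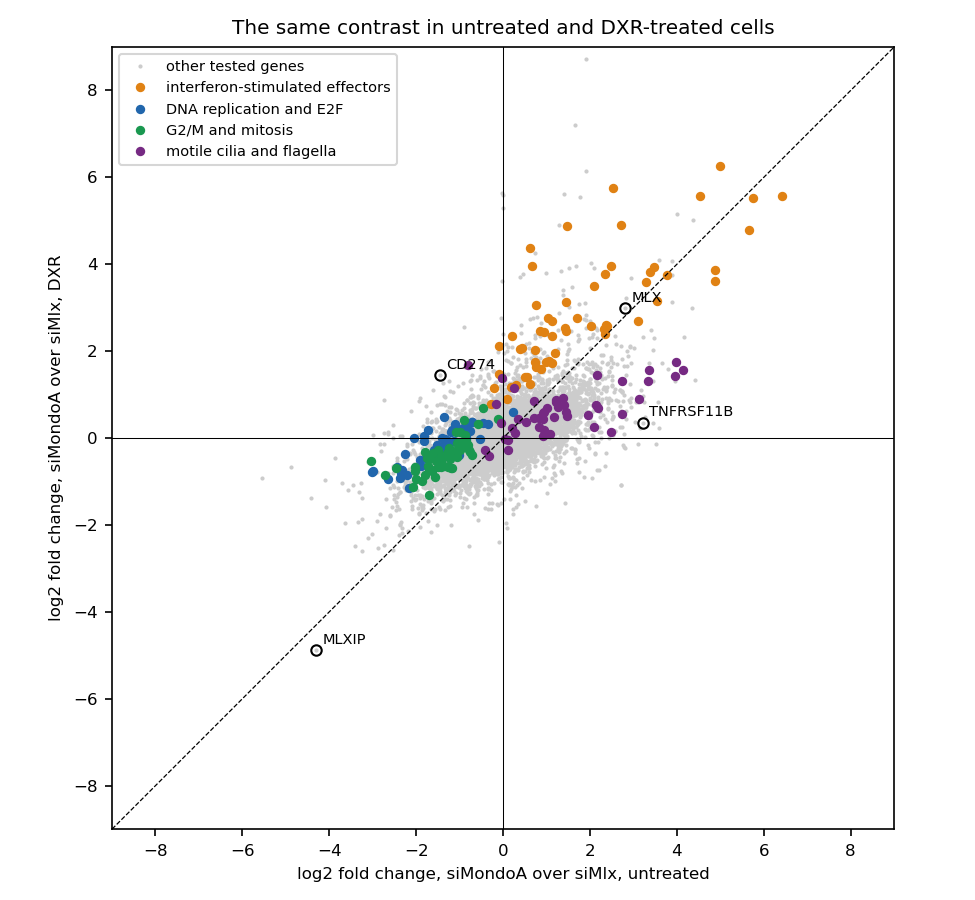
Log2 fold change of siMondoA over siMlx in DXR-treated (vertical axis) against untreated cells (horizontal axis) for all tested genes; the dashed line marks equal values. Interferon-stimulated effectors lie above 0 on the vertical axis and mostly right of 0, replication and mitosis genes lie left of 0 and near 0 on the vertical axis, and CD274 is ringed in the upper left.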

How the data were processed

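RNA-seq libraries were made with TruSeq Stranded mRNA reagents, per the labels' protocols. Reads were converted with bcl2fastq and aligned to GRCh38 with TopHat2 2.1.1, per the submitters' processing notes; no source used here names the counter, the annotation or whether strand was used, so overlapping and antisense genes are uncertain. Whole-number counts per gene and RPKM values, both computed by the authors for 33121 gene names, were used as deposited. RPKM served only to set levels of different genes side by side.

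Counts of all 18 libraries were fitted with edgeR 4.0.16 (R 4.3.3, limma 3.58.1): TMM scaling, filterByExpr, 1 mean per group, quasi-likelihood tests on 12 residual degrees of freedom, Benjamini-Hochberg adjustment over 13676 genes, threshold 0.05. The biological coefficient of variation was 7.42%. The labels put 3 libraries in each group, and every pair of replicates among the 6 compared libraries differed by more than counting noise (chi-square per degree of freedom of 3.749 to 11.34). Tested on simulated data for this comparison (13396 genes), the fit recovered 63.1% of genes changed 1.5-fold, 89.6% changed 2-fold and 100% changed 4-fold, and called 13 unchanged genes. Only 65, 67 and 65 genes were changed by these amounts, and the simulated spread depended on a gene's level alone. In the data 58.9% of genes were called, so these figures need not hold for them.

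Named were 14 fixed genes, the 15 genes per direction with the largest called difference, a mean of at least 5 CPM and no overlap of libraries, up to 6 genes of smallest p per list, and the 5 genes per direction of smallest interaction p; a few others are marked as chosen after their values were seen. The 55 lists and these rules were chosen with earlier results of these data known. Of 1740 list members 1739 matched a listed name, directly or through an older symbol. Coordinates of genes come from GENCODE 29 (12329 of 13676 tested genes matched), and promoter windows from RefSeq, GRCh38.p14 (9830 matched). Ratios of genes with few counts have exact intervals at 95%, and a group at 0 was set to a floor of 3 counts over its 3 libraries; both cover counting error only. Alternatives were other scalings (RLE, upper quartile), filters and sets of libraries, a replicate block, leaving out each library in turn, and DESeq2 1.42.0. Some genes are not reported here.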

Additional observations from a re-analysis of the deposited data

Results flagged for a closer look

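The difference between siMondoA and siMlx was tested for change between untreated and DXR-treated cells by an interaction term in the same edgeR fit, and 4007 genes passed. All 18 libraries stand in groups of 3, too small for a check for single deviating libraries. The values that follow are log2 differences, untreated minus DXR, of genes that passed among the siRNA targets and other fixed genes, the genes of largest difference, those of smallest interaction p, the 6 interferon-stimulated effectors of smallest p, and OAS2, XAF1, MX1, ADAR and CD274, which were chosen after their values were seen.

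Among the targets and their network, MLXIP stood at 0.58, MAX at -0.53 and MYC at -0.60, and PRDX3 at -0.81. The genes highest with siMondoA in untreated cells had values above 0, that is, a larger difference there: IL6R 1.84, SPEF1 2.22, EPHA3 1.93, SPTLC3 1.43, DCTD 0.92, RNASE4 1.63, DNAH7 2.03, TNFRSF11B 2.86 and FANK1 2.22. For TNFRSF11B the difference under DXR did not pass the test (log2 0.36, adjusted p = 0.151).

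MLXIP, also among the genes lowest with siMondoA in untreated cells, had a larger difference under DXR. The others of them that passed had values below 0, that is, a larger difference in untreated cells: BTBD10 -0.92, B4GALT6 -1.41, ATP5SL -1.88, MELK -2.52, CCNE2 -2.23, GNPDA1 -0.80, ORC6 -2.23, RPIA -0.99, CDCA7 -2.68, ARSI -2.49, MAD2L1 -1.87, PM20D2 -1.30 and WEE1 -0.63. These genes were chosen for their size in untreated cells, so the direction of these values is a description.

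Among the genes named for the smallest interaction p, KIF1C stood at 1.38, TGOLN2 at 1.46, KIF3B at 1.16, SLC6A6 at 1.22 and CMTM6 at 1.49. On the other side PTK2 stood at -0.85, MAP4K4 at -1.01, PNRC2 at -1.26, SMCHD1 at -1.42 and FKBP5 at -2.03. Their causes were not tested.

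Of the 6 interferon-stimulated effectors of smallest p, only IFIT2, at -3.21, and IFIT3, at -1.43, passed. Values below 0 mean a higher siMondoA over siMlx value under DXR. IFIT1, whose difference was smaller under DXR, did not pass. Of the genes chosen after their values were seen, MX1 stood at -3.75, from a difference that did not pass in untreated cells (log2 0.63, adjusted p = 0.491). ADAR stood at -1.06 (log2 -0.27 untreated and 0.79 with DXR). CD274 stood at -2.90 and was lower with siMondoA in untreated cells (log2 -1.45, adjusted p = 1.84e-06) and higher under DXR (log2 1.45, adjusted p = 6.83e-07).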

How the results depend on the processing

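The 120 counts of genes recomputed under the alternatives, for all comparisons, stayed within 1.5 times the value reported. The count of 8060 genes called was 8037 with RLE scaling, 8015 with upper-quartile scaling, 7846 with no filter, 7897 with a filter of 1 CPM, 7717 on the 6 libraries alone, 7873 on the 9 untreated libraries and 7842 in DESeq2. Leaving out each library in turn gave 7355 to 7693 calls, 3550 to 3743 higher and 3802 to 3953 lower, with 950 to 1021 and 921 to 1052 at 2-fold or more. Among values of gene lists, 29 counts of members moved by over 1.5 times and 46 medians by over 0.1, 58 of these 75 when 1 library was left out, and 2193 did not. No scaling moved the median of all genes by 0.1. Each scaling is built to hold most genes level between libraries, so this median could hardly move and is no check on the scaling.

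With the replicate number as a block 8300 genes were called, 4016 higher and 4284 lower. The numbers share no stated culture or day. The deviations of same-numbered siMlx and siMondoA libraries correlated at 0.0447, 0.024 and 0.21. These were not all above 0.1, and the numbers were not taken to pair the libraries. Some structure did follow the numbers. On the second principal component (7.96% of variance) replicate 3 lay at -17.7 with siMlx and -20.3 with siMondoA, the other libraries between 6.4 and 13.6. Summed sterol and fatty acid genes were lowest in replicate 3 of each untreated group, at 2951 to 2965 CPM. The block moved no count by over 1.5 times.

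Of the named genes, 10 values changed sign, each of a gene not called. Leaving out 1 library in turn gave -0.082 to 0.126 for CDKN2A, -0.075 to 0.757 for RMRP, -0.004 to 0.32 for RN7SK, -0.50 to 0.14 for VWF, -0.27 to 0.22 for TEK, -0.113 to 0.013 for MAP2 and -0.13 to 1.00 for MX1. OAS2 moved to 6.64 without siMlx replicate 1 and to 4.68 without siMondoA replicate 2. The calls of S100A4, ACTA2, BEST1, MERTK and IGF1R ended without some library, and CDKN1A passed without siMondoA replicate 1 (log2 -0.21, adjusted p = 0.0397). The causes were not tested.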

Other observations

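Of 37 tested matrix genes 15 were higher and 4 lower (40.5% higher and 10.8% lower, against 28.5% and 30.4% of all tested genes), at a median of log2 0.18. Of 30 collagen and laminin genes 9 were higher and 3 lower, a share higher near that of all genes. EFEMP1, the fibulin-3 gene, was measured at 106, 103 and 96.9 CPM with siMlx and 296, 335 and 239 CPM with siMondoA (log2 1.51, SE 0.12, adjusted p = 1.67e-09), and its libraries did not overlap. Of 18 integrins 6 were higher and 4 lower (33.3% higher and 22.2% lower), also near the share of all genes on the higher side. ITGAV (the alpha-V chain) and ITGB8 were higher and ITGB3 lower, at log2 1.13, 1.02 and -2.11 (adjusted p = 2.39e-05, 1.58e-09 and 2.56e-06). ITGB3 was measured at 15.4, 12.3 and 9.600 CPM with siMlx and 3.17, 3.32 and 1.99 CPM with siMondoA. Of the proteases and inhibitors of the senescence list, PLAT, tissue plasminogen activator, TIMP1, a metalloproteinase inhibitor, and IGFBP3, an IGF carrier, were higher (log2 0.90, 0.55 and 0.68, adjusted p = 2.16e-08, 2.83e-07 and 8.93e-08).

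In the endoplasmic reticulum 12 of 28 stress genes were higher and 8 lower (42.9% higher and 28.6% lower, against 28.5% and 30.4% of all tested genes), at a median of log2 -0.07. EDEM1, which hands misfolded glycoproteins to degradation, was measured at 28.7, 31.1 and 34.2 CPM with siMlx and 107, 111 and 103 CPM with siMondoA (log2 1.77, SE 0.09, adjusted p = 3.69e-12), and ATF6, a membrane-bound stress sensor, was higher (log2 1.03, adjusted p = 4.99e-12). ERN1, which encodes the sensor IRE1, was lower, at 7.92, 5.86 and 6.0 CPM with siMlx and 2.34, 2.06 and 2.12 CPM with siMondoA (log2 -1.60, SE 0.16, adjusted p = 4.81e-08). Of 32 sterol and fatty acid genes 7 were higher and 6 lower (21.9% higher and 18.8% lower). MSMO1, a sterol methyl oxidase, was higher and FADS1, a fatty acid desaturase, lower (log2 1.28 and -0.89, adjusted p = 3.98e-07 and 5.08e-12).

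In TGF-beta and epithelial-mesenchymal genes 8 of 30 were higher and 12 lower (26.7% higher and 40% lower, against 28.5% and 30.4% of all tested genes). SNAI2, the transcription factor Slug, was measured at 16.3, 14.6 and 15.2 CPM with siMlx and 5.29, 5.62 and 5.92 CPM with siMondoA (log2 -1.45, SE 0.12, adjusted p = 3.29e-09), and SMAD3 was lower (log2 -0.66, adjusted p = 2.8e-08). BMP4, a growth factor, was higher (log2 0.86, adjusted p = 5e-09). Of 35 Notch and Wnt genes 9 were higher and 11 lower (25.7% higher and 31.4% lower). Besides the Notch receptors, FZD4, a Wnt receptor, was higher and LEF1, a transcription factor of the pathway, lower (log2 1.36 and -1.51, adjusted p = 2.7e-13 and 3.72e-09). Of 34 proteasome genes 8 were higher and 9 lower (23.5% higher and 26.5% lower), below the share of all genes on both sides, and of 76 mitochondrial ribosomal protein genes 12 were higher and 27 lower, a count of lower members that was 16 without siMlx replicate 2.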
